A study of Mus musculus with 9 samples.

Results

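The RNA-seq profiles of 9 whole mouse ovaries, 5 from WT and 4 from ERβKO females, were read for 36 genes whose transcripts are made in the oocyte. The members were listed by symbol, each was matched by symbol to the row of the count table with the highest summed count, and all 36 were found among the 46078 genes of the table. By known role they comprised 3 zona pellucida genes, 3 genes of secreted proteins, 8 transcription factor genes, 9 genes of the subcortical maternal complex and the Nlrp family, 6 genes of maternal RNA and chromatin, 2 genes of meiotic arrest and 5 genes of germ-cell RNA and meiosis. The 10 members that are already active in early germ cells or at follicle formation were set beside 26 that are known to be strongly transcribed in growing oocytes. All mice were C57BL/6J and labelled untreated. ERβKO mice carried a germline deletion of exon 3 of the ERβ gene Esr2, made with a Rosa26-Cre deleter and a floxed allele and bred from heterozygotes, and WT mice were offspring without Cre, so that the receptor was missing from every cell of the knockout and not from 1 cell type. The treatment text of the labels also describes a high-fat or control diet and injections of the ERβ ligand DPN or vehicle, and the diet of each mouse was not given in the sources used here. Over all experiments of the study the mice were aged 4 to 20 weeks, and the ovaries were not taken at 1 stage of the cycle.

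An oocyte stays arrested in the first meiotic division from before birth, and it is enclosed with granulosa cells in a follicle. Once the follicle is recruited the oocyte grows, lays down the zona pellucida around itself, secretes factors that act on the granulosa cells, and stores the RNA and proteins that the embryo uses before its own genome is switched on. Transcription factors such as FIGLA, NOBOX, LHX8 and the SOHLH pair start this programme, and the fully grown oocyte largely stops transcription.

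The counted fragments came to 12353740 to 16519975 in the WT and 13088728 to 18717510 in the ERβKO libraries. Esr2 was counted over its whole length, the retained exons included, and its 10.5 to 23.7 FPKM in ERβKO ovaries overlapped the 12.4 to 23.9 FPKM of WT ovaries (log2 fold change -0.02, edgeR quasi-likelihood test, adjusted p = 0.966), so this count did not check the genotype labels. FPKM are fragments scaled by transcript length and by the mapped fragments of the library, as calculated by the authors, and log2 fold changes are ERβKO over WT from edgeR on the deposited counts. For the label of the tissue, 10 markers of granulosa cells, the zona gene Zp3, the oocyte factor gene Gdf9 and the germ-cell helicase gene Ddx4 were read. All were above 0 in each ovary, a low threshold that does not show whether other tissue was present. The oviduct epithelium markers also summed to 3500 to 6340 CPM in every library (counts scaled to the size of the library), and 1 of them, Ovgp1, averaged 1774 FPKM in WT ovaries and 1677 FPKM in ERβKO ones. Since whole ovaries were measured, fewer oocytes and less RNA per oocyte cannot be told apart at any point in what follows.

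The DNA just before the start of these genes was read for letters that oocyte transcription factors are known to bind. FIGLA acts through E-boxes, spelled CANNTG, and NOBOX binds TAATTG and TAATTA. RefSeq promoter windows of GRCm38.p6 matched 28 members in 32 windows, and the 250 bases before the start were searched on both strands. Shown are 3 windows, of a zona gene, of a secreted factor gene and of the germ-cell gene Ddx4, which was chosen after its values were seen, in lower case with E-boxes and NOBOX motifs in capitals.
Zp3: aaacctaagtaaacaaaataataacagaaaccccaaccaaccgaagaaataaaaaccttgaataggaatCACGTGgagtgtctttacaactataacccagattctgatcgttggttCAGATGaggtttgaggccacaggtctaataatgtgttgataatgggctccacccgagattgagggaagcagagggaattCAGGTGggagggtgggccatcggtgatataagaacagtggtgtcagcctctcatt
Bmp15: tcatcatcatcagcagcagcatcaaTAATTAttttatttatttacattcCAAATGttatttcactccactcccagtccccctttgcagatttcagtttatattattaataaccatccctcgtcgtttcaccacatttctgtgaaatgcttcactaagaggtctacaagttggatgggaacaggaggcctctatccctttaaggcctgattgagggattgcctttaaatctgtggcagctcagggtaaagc
Ddx4: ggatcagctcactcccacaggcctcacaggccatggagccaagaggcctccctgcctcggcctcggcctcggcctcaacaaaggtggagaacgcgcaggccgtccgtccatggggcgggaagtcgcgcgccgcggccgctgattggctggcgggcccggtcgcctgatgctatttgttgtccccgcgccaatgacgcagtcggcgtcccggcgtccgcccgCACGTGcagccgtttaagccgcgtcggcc
The Zp3 window lies on the plus strand at chr5:135979855-135980104, the Bmp15 window on the minus strand at chrX:6320725-6320974 and the Ddx4 window on the minus strand at chr13:112652311-112652560. Zp3 had E-boxes that begin 181, 134 and 55 bases before the start, and Ddx4 had 1 that begins 29 bases before it. Bmp15 had a TAATTA that begins 225 bases before its start, and 1 E-box. An E-box was found in 28 of the 32 member windows, and in 66.2% of the 32851 windows of all genes. Some members had more than 1 window, and by gene 24 of the 28 matched members had an E-box. TAATTG or TAATTA was found in 4 of the 32 member windows, those of Bmp15, Nlrp5, Nlrp9b and Ooep, and in 11.3% of all windows, a similar share. These matches describe the letters of the windows and no binding was measured here.

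Of the 36 oocyte genes, 32 passed the filter on low counts and none was called between genotypes in edgeR's quasi-likelihood test, which called 1.72% of the 16722 genes tested (287 genes, with 0.915% called as higher and 0.801% as lower in ERβKO ovaries). A call required an adjusted p below 0.05, a log2 fold change beyond 0.4 in either direction and more than 1 FPKM on average in a genotype. At an unadjusted p under 0.05, edgeR counted 0 and DESeq2 counted 1 of the 32 members. Over all 16722 genes edgeR counted 3315 (19.8%) and DESeq2 counted 3462. The fold changes nevertheless lay mostly to 1 side. They were positive for 30 of the 32 tested members, with a median of 0.36, whereas 49.9% of all genes were positive and their median was -0.0009. All 25 tested genes of growing oocytes were positive (median 0.42), and 5 of the 7 tested early germ cell genes (median 0.21). No member had FPKM that separated all ERβKO from all WT ovaries, as 7.61% of the tested genes did (4.29% with ERβKO above WT and 3.31% below). The members rise and fall together from ovary to ovary, as described below, so their 30 positive values do not count as 30 separate observations. The median of the members moved to 0.23 without WT 5, to 0.24 without ERβKO 1, and to 0.23 over the 7 libraries numbered below 200, which leaves out WT 4 and WT 5. Without WT 3 it was 0.54, and the smallest adjusted p of the members was 0.150. In that fit 11 of the 31 members tested had an unadjusted p under 0.05 in edgeR, as did 3256 of all 16548 genes.

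**Figure D1:**
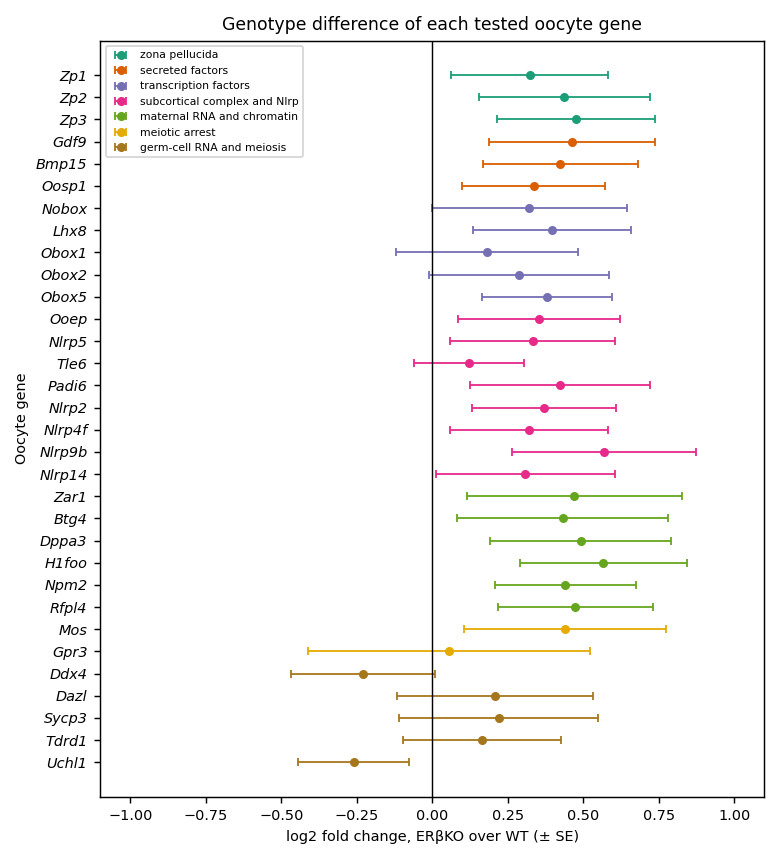
Log2 fold change of each of the 32 tested oocyte genes, ERβKO over WT, with its standard error (horizontal bars), from edgeR on the counts of 5 WT and 4 ERβKO ovaries; colours mark roles. The points of 30 genes lie to the right of 0, those of Ddx4 and Uchl1 lie to the left, and no gene passed the adjusted threshold.

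The 3 zona pellucida genes, which encode the glycoproteins of the coat around the oocyte, shared 1 pattern over the ovaries. Zp3 was at 9.92, 9.79, 17.7, 14.7 and 5.85 FPKM in WT 1 to 5 and at 20.2, 14.5, 13.2 and 17.6 FPKM in ERβKO 1 to 4. Zp2 was at 15.4, 15.9, 26.5, 18.5 and 7.25 FPKM in WT 1 to 5 and at 28.7, 19.3, 16.6 and 27.6 FPKM in ERβKO 1 to 4. Zp1 was at 6.64, 6.12, 10.6, 7.52 and 3.37 FPKM in WT 1 to 5 and at 10.8, 7.08, 6.74 and 10.3 FPKM in ERβKO 1 to 4. The lowest level of each gene was in WT 5 and the highest in ERβKO 1, with WT 3 and ERβKO 4 close below, so that both genotypes held high ovaries. For Zp3, WT ovaries averaged 11.6 ± 4.64 and ERβKO ovaries 16.4 ± 3.14 FPKM (SD, n = 5 and 4; log2 fold change 0.48, SE 0.26, edgeR adjusted p = 0.348). For Zp2, WT ovaries averaged 16.7 ± 6.89 and ERβKO ovaries 23.04 ± 5.99 FPKM (SD, n = 5 and 4; log2 fold change 0.44, SE 0.28, edgeR adjusted p = 0.424). For Zp1, WT ovaries averaged 6.86 ± 2.62 and ERβKO ovaries 8.74 ± 2.12 FPKM (SD, n = 5 and 4; log2 fold change 0.32, SE 0.26, edgeR adjusted p = 0.526). By the exact permutation test of log2 FPKM over all splits of the ovaries into 5 and 4, the p-values were 0.143 for Zp3, 0.159 for Zp2 and 0.262 for Zp1, and the smallest that this test allows is 0.00794. Zp3 lies on chromosome 5 from 135980099 to 135988624 (plus strand, GRCm38), Zp2 on chromosome 7 from 120132361 to 120145290 and Zp1 on chromosome 19 from 10914287 to 10920632.

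GDF9 and BMP15 are oocyte growth factors of the TGF-β family that act on granulosa cells, and OOSP1 is a protein secreted by the oocyte. Gdf9 was at 14.2, 13.5, 24.5, 26.5 and 7.77 FPKM in WT 1 to 5 and at 53.3, 17.95, 16.7 and 24.6 FPKM in ERβKO 1 to 4. Bmp15 was at 4.57, 4.85, 8.25, 5.82 and 3.01 FPKM in WT 1 to 5 and at 9.58, 5.09, 6.68 and 7.68 FPKM in ERβKO 1 to 4. Oosp1 was at 4.34, 5.66, 10.4, 7.68 and 4.27 FPKM in WT 1 to 5 and at 8.76, 7.57, 6.62 and 10.4 FPKM in ERβKO 1 to 4. The ovaries kept nearly the order seen for the zona genes, except that Oosp1 was highest in WT 3. For Gdf9, WT ovaries averaged 17.3 ± 7.93 and ERβKO ovaries 28.2 ± 17.1 FPKM (SD, n = 5 and 4; log2 fold change 0.46, SE 0.28, edgeR adjusted p = 0.383). For Bmp15, WT ovaries averaged 5.30 ± 1.93 and ERβKO ovaries 7.26 ± 1.88 FPKM (SD, n = 5 and 4; log2 fold change 0.42, SE 0.26, edgeR adjusted p = 0.391). For Oosp1, WT ovaries averaged 6.47 ± 2.60 and ERβKO ovaries 8.33 ± 1.62 FPKM (SD, n = 5 and 4; log2 fold change 0.34, SE 0.24, edgeR adjusted p = 0.462). The FPKM of Gdf9 in ERβKO 1 was far above all others, while its counts were not. Its CPM there was 67.7, and 59.7 in WT 3, the next highest. The ratio of FPKM to CPM varied by 1.97-fold between ovaries for Gdf9 and by 1.07-fold for Bmp15, so the height of Gdf9 in ERβKO 1 rested on the FPKM estimate, and the reason was not tested.

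**Figure D2:**
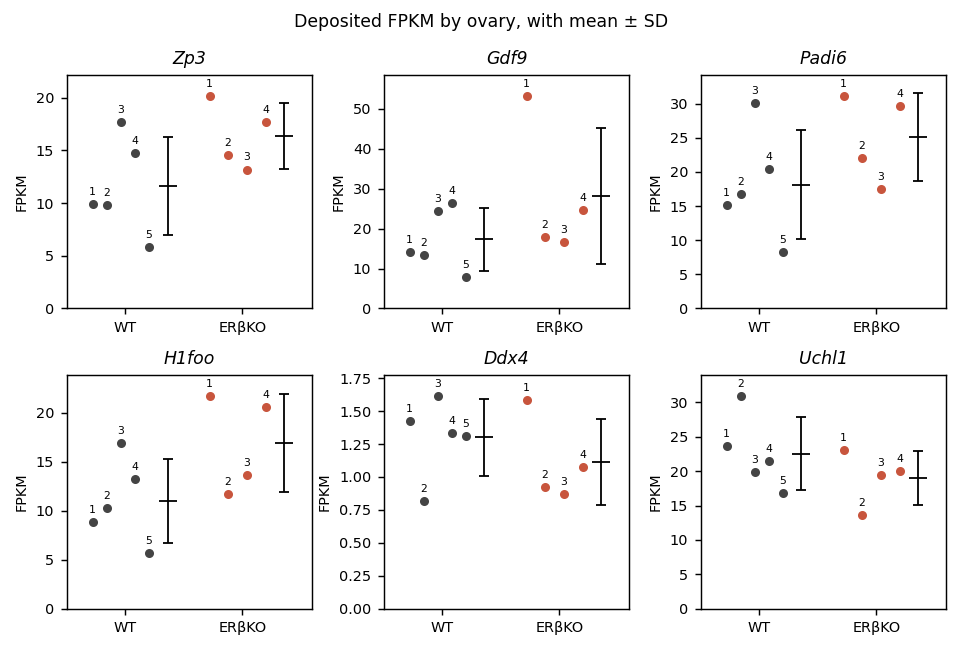
Deposited FPKM of 6 oocyte genes in each ovary (points, numbered by replicate; 5 WT in grey, 4 ERβKO in red), with the mean ± SD of each genotype (horizontal mark and bar). Zp3, Gdf9, Padi6 and H1foo were lowest in WT 5 and highest in ERβKO 1, whereas Ddx4 and Uchl1 followed another order, and the genotypes overlap in all 6 panels.

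Of the 8 transcription factor genes, Figla, Sohlh1 and Sohlh2 did not pass the filter. FIGLA is the factor that switches on the zona genes, and its gene had 2 to 17 counts per ovary (0.119 to 0.983 CPM). Sohlh1 and Sohlh2, which act in early follicles, had 0 to 11 and 0 to 12 counts. At this depth no difference in these 3 genes could be measured. NOBOX is a homeobox factor of early oocytes, and the Obox genes encode oocyte homeobox proteins. Nobox was at 2.95, 4.43, 6.71, 4.58 and 2.05 FPKM in WT 1 to 5 and at 7.43, 3.59, 4.09 and 6.72 FPKM in ERβKO 1 to 4. Obox2 was at 4.35, 4.45, 6.95, 8.41 and 3.72 FPKM in WT 1 to 5 and at 9.89, 5.02, 5.24 and 8.51 FPKM in ERβKO 1 to 4. Obox1 was at 3.94, 3.46, 7.16, 5.52 and 3.27 FPKM in WT 1 to 5 and at 6.88, 3.92, 5.17 and 6.94 FPKM in ERβKO 1 to 4. WT 5 was lowest for each of the 3 genes, and ERβKO 1, ERβKO 4 and WT 3 or WT 4 were high. For Nobox, WT ovaries averaged 4.14 ± 1.78 and ERβKO ovaries 5.45 ± 1.90 FPKM (SD, n = 5 and 4; log2 fold change 0.32, SE 0.32, edgeR adjusted p = 0.624). For Obox2, WT ovaries averaged 5.57 ± 2.01 and ERβKO ovaries 7.17 ± 2.42 FPKM (SD, n = 5 and 4; log2 fold change 0.29, SE 0.30, edgeR adjusted p = 0.634). For Obox1, WT ovaries averaged 4.67 ± 1.65 and ERβKO ovaries 5.73 ± 1.46 FPKM (SD, n = 5 and 4; log2 fold change 0.18, SE 0.30, edgeR adjusted p = 0.781). Obox5 ranged from 1.63 to 4.49 FPKM (log2 fold change 0.38), and Lhx8, a LIM homeobox gene of the primordial follicle, from 0.393 to 1.09 FPKM (0.40). The Obox genes share stretches of sequence with other Obox genes. Of the 50-base words of their exons, 57.4% in Obox1, 65.1% in Obox2 and 18.1% in Obox5 also occur in another gene, so their values are uncertain singly.

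The subcortical maternal complex is a protein assembly beneath the oocyte membrane, of which OOEP, NLRP5, TLE6 and KHDC3 are components and with which the peptidylarginine deiminase family member PADI6 is associated. Padi6 was at 15.2, 16.7, 30.04, 20.4 and 8.31 FPKM in WT 1 to 5 and at 31.2, 22.1, 17.5 and 29.7 FPKM in ERβKO 1 to 4. Tle6 was at 17.8, 13.7, 21.6, 17.00 and 15.4 FPKM in WT 1 to 5 and at 24.96, 16.5, 13.5 and 20.9 FPKM in ERβKO 1 to 4. Nlrp14 was at 9.25, 10.4, 16.7, 12.5 and 4.64 FPKM in WT 1 to 5 and at 17.99, 11.03, 10.00 and 14.8 FPKM in ERβKO 1 to 4. Padi6 and Nlrp14, a gene of the NLR family, followed the zona genes, with WT 5 lowest and ERβKO 1 highest. Tle6, named for its kinship with transducin-like enhancer proteins, varied by 1.85-fold over all ovaries, the least of the tested growing oocyte genes, and was lowest in ERβKO 3. For Padi6, WT ovaries averaged 18.1 ± 7.97 and ERβKO ovaries 25.1 ± 6.44 FPKM (SD, n = 5 and 4; log2 fold change 0.42, SE 0.30, edgeR adjusted p = 0.461). For Tle6, WT ovaries averaged 17.1 ± 2.99 and ERβKO ovaries 18.9 ± 5.02 FPKM (SD, n = 5 and 4; log2 fold change 0.12, SE 0.18, edgeR adjusted p = 0.756). For Nlrp14, WT ovaries averaged 10.7 ± 4.43 and ERβKO ovaries 13.5 ± 3.66 FPKM (SD, n = 5 and 4; log2 fold change 0.31, SE 0.30, edgeR adjusted p = 0.608). Nlrp5 spanned 3.48 to 13.2 FPKM, Ooep 1.64 to 5.76, Nlrp4f 1.19 to 3.86, Nlrp9b 0.733 to 3.55 and Nlrp2 0.605 to 1.67 FPKM, and WT 5 was lowest for all 5. Among them Nlrp9b had the largest log2 fold change of the 32 tested members, 0.57 with a standard error of 0.30, at an adjusted p of 0.334 in edgeR. Khdc3 had only 2 to 11 counts per ovary and was filtered out, although its FPKM were 0.696 to 2.82. In the annotation 38.5% of its exonic length overlaps Gm20509 on the same strand, and its ratio of FPKM to CPM was 2.55 to 9.54, against 0.324 to 0.360 for Ooep, so its count and its FPKM give different pictures of its level.

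Genes of maternal RNA and chromatin act in the egg and the early embryo. H1FOO is the linker histone of the oocyte, NPM2 a histone chaperone that remodels sperm chromatin, and DPPA3 guards methylation marks of the maternal genome. H1foo was at 8.89, 10.3, 16.9, 13.2 and 5.71 FPKM in WT 1 to 5 and at 21.7, 11.7, 13.6 and 20.6 FPKM in ERβKO 1 to 4. Npm2 was at 9.64, 9.61, 13.3, 11.7 and 5.78 FPKM in WT 1 to 5 and at 16.8, 11.3, 9.85 and 17.7 FPKM in ERβKO 1 to 4. Dppa3 was at 6.36, 6.63, 10.7, 11.01 and 4.01 FPKM in WT 1 to 5 and at 13.1, 7.33, 8.44 and 14.8 FPKM in ERβKO 1 to 4. Here ERβKO 1 and ERβKO 4 were the 2 highest ovaries for all 3 genes, and ERβKO 2 and ERβKO 3 lay within the WT range. For H1foo, WT ovaries averaged 11.00 ± 4.26 and ERβKO ovaries 16.9 ± 4.98 FPKM (SD, n = 5 and 4; log2 fold change 0.57, SE 0.28, edgeR adjusted p = 0.289). For Npm2, WT ovaries averaged 10.02 ± 2.83 and ERβKO ovaries 13.9 ± 3.94 FPKM (SD, n = 5 and 4; log2 fold change 0.44, SE 0.23, edgeR adjusted p = 0.329). For Dppa3, WT ovaries averaged 7.73 ± 3.01 and ERβKO ovaries 10.9 ± 3.58 FPKM (SD, n = 5 and 4; log2 fold change 0.49, SE 0.30, edgeR adjusted p = 0.394). The p of H1foo, 0.0673 before adjustment, was the smallest of the 32 tested members, and its adjusted p ranged from 0.150 to 0.517 over the alternatives. Zar1, needed for the transition from oocyte to embryo, spanned 1.04 to 4.84 FPKM (log2 fold change 0.47), Btg4, which takes part in the clearance of maternal mRNA, 1.87 to 5.63 FPKM (0.43), and Rfpl4, which encodes a RING finger protein of the oocyte, 1.96 to 5.24 FPKM (0.47). For Zar1 28.3% and for Dppa3 16.5% of the 50-base words occur in other genes, pseudogenes among them.

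MOS, a kinase that holds the egg at the second meiotic metaphase, and GPR3, a receptor that keeps cAMP high and the oocyte arrested in prophase, act at different points of meiosis, and their genes had the fewest counts of the tested growing oocyte genes. Mos was at 0.802, 1.12, 1.83, 1.06 and 0.512 FPKM in WT 1 to 5 and at 1.73, 1.16, 1.08 and 1.88 FPKM in ERβKO 1 to 4. Gpr3 was at 0.209, 0.0915, 0.258, 0.197 and 0.0635 FPKM in WT 1 to 5 and at 0.314, 0.106, 0.220 and 0.112 FPKM in ERβKO 1 to 4. Mos shared the lowest ovary, WT 5, and the 3 highest ovaries with the zona genes, and was highest in ERβKO 4. For Mos, WT ovaries averaged 1.06 ± 0.489 and ERβKO ovaries 1.46 ± 0.401 FPKM (SD, n = 5 and 4; log2 fold change 0.44, SE 0.33, edgeR adjusted p = 0.502). For Gpr3, WT ovaries averaged 0.164 ± 0.0825 and ERβKO ovaries 0.188 ± 0.0992 FPKM (SD, n = 5 and 4; log2 fold change 0.06, SE 0.47, edgeR adjusted p = 0.962). Gpr3 rested on 3 to 17 counts per ovary, its sign changed under 6 of the alternatives, and no genotype difference was detectable at this depth.

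Among the 5 genes of germ-cell RNA and meiosis, Uchl1 and Ddx4 differed in their order over the ovaries from the zona genes. UCHL1 is a deubiquitinase abundant in oocytes and neurons, DDX4 an RNA helicase that marks germ cells, and TDRD1 a Tudor protein of the piRNA pathway. Uchl1 was at 23.7, 30.9, 19.9, 21.4 and 16.8 FPKM in WT 1 to 5 and at 23.01, 13.6, 19.5 and 19.97 FPKM in ERβKO 1 to 4. Ddx4 was at 1.42, 0.821, 1.61, 1.34 and 1.31 FPKM in WT 1 to 5 and at 1.59, 0.923, 0.869 and 1.08 FPKM in ERβKO 1 to 4. Tdrd1 was at 0.990, 1.08, 1.68, 1.19 and 0.707 FPKM in WT 1 to 5 and at 1.69, 0.935, 0.879 and 1.65 FPKM in ERβKO 1 to 4. Uchl1 was highest in WT 2 and lowest in ERβKO 2, Ddx4 was lowest in WT 2 and kept a middle level in WT 5, and Tdrd1 had the order of the zona genes at its extremes. For Uchl1, WT ovaries averaged 22.5 ± 5.32 and ERβKO ovaries 19.02 ± 3.92 FPKM (SD, n = 5 and 4; log2 fold change -0.26, SE 0.18, edgeR adjusted p = 0.463). For Ddx4, WT ovaries averaged 1.30 ± 0.294 and ERβKO ovaries 1.11 ± 0.327 FPKM (SD, n = 5 and 4; log2 fold change -0.23, SE 0.24, edgeR adjusted p = 0.634). For Tdrd1, WT ovaries averaged 1.13 ± 0.356 and ERβKO ovaries 1.29 ± 0.442 FPKM (SD, n = 5 and 4; log2 fold change 0.16, SE 0.26, edgeR adjusted p = 0.774). Uchl1 and Ddx4 were the 2 tested members with a negative fold change. Dazl, which encodes an RNA-binding protein of germ cells, ranged from 0.484 to 1.56 FPKM (log2 fold change 0.21), and Sycp3, a synaptonemal complex gene, from 0.285 to 0.760 FPKM (0.22). An opposite-strand gene overlaps 52.2% of the exonic length of Sycp3 (Chpt1) and 18.1% of that of Uchl1 (Uchl1os), and the strand setting of the counting is not given in the sources used here.

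Across the 9 ovaries most members moved together. Of the 32 tested members 27 had their lowest CPM in WT 5, and 14 had their highest in ERβKO 1. For 19 of the 25 tested growing oocyte genes the 3 highest ovaries were ERβKO 1, ERβKO 4 and WT 3. Highest and lowest ovary differed by a median of 3.16-fold over these 25 genes, from 1.88-fold for Tle6 to 4.53-fold for Zar1. Summed over the 26 growing oocyte genes the level was 421, 422, 703, 538 and 256 CPM in WT 1 to 5 and 761, 491, 480 and 708 CPM in ERβKO 1 to 4. This sum made up 0.0248% to 0.0773% of the counts of a library. The WT ovaries thus ranged from below to nearly the top of the ERβKO ovaries.

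**Figure D3:**
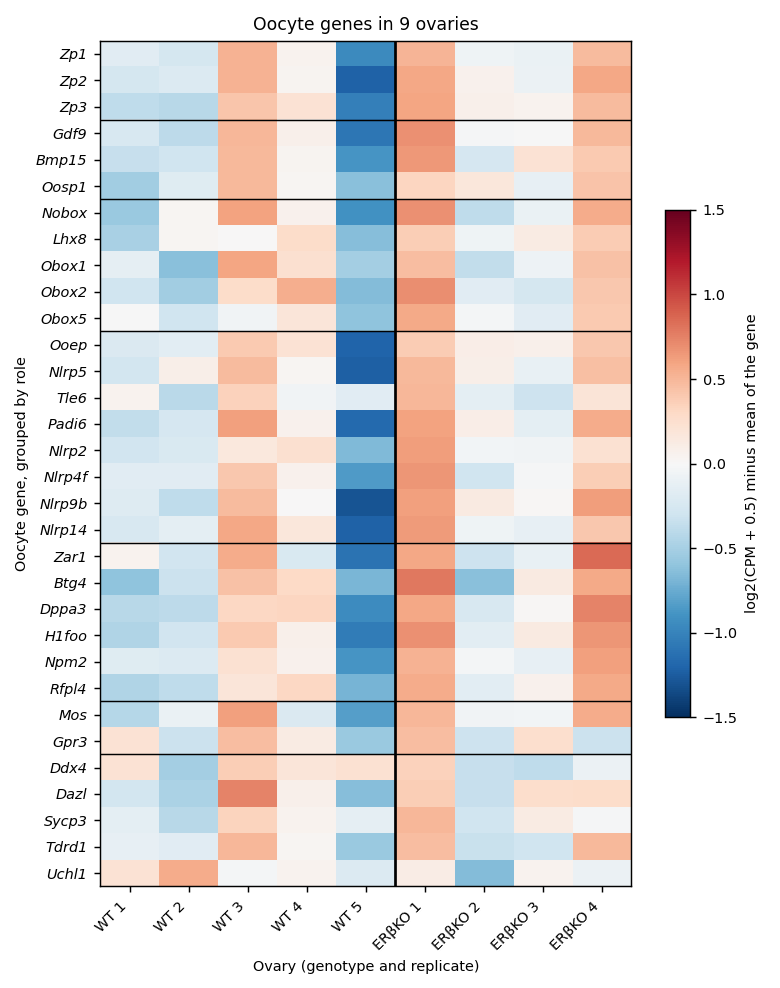
Level of each of the 32 tested oocyte genes (rows, in groups of role divided by lines) in each ovary (columns, WT left of the line), as log2(CPM + 0.5) minus the mean of the gene over the 9 ovaries; red is higher and blue lower. The column of WT 5 is blue in nearly all rows, those of WT 3, ERβKO 1 and ERβKO 4 are mostly red, and the rows of Ddx4 and Uchl1 differ from the others.

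To put a value on this, log2 CPM of each tested member was correlated with that of Zp3 over the 9 ovaries, with exact permutation over all 362880 pairings and adjustment over the 31 relations. Of these, 26 passed an adjusted p of 0.05 by Pearson's r and 27 by Spearman's rho (medians 0.914 and 0.883), and 17 had an r above 0.9. Gdf9 was closest to Zp3 (r = 0.986, permutation p = 1.10e-05, adjusted p = 0.000199; rho = 0.967, p = 0.000165, adjusted p = 0.00171), followed by Padi6 (r = 0.973, rho = 0.917) and H1foo (r = 0.972, rho = 0.933). Tle6 (r = 0.65), Sycp3 (0.65), Gpr3 (0.62), Ddx4 (0.14) and Uchl1 (-0.09) did not pass by r. Of these Tle6 passed by rank (rho = 0.817, permutation adjusted p = 0.0152). With the genotype means removed 27 of the 31 passed over the 9 ovaries pooled (median r 0.899), Gpr3 now among them (r = 0.70, permutation adjusted p = 0.0445). The relation thus remained without the difference between genotype means. The pairings were permuted across genotypes, and no correlation was calculated inside 1 genotype, so these values do not show that it held in each. Without WT 5 and ERβKO 1, the 2 ovaries farthest from the median of Zp3, the median r was 0.844 and 16 of 31 passed over the 7 ovaries. The points share a library and its scaling, which can add to any correlation between genes.

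**Figure D4:**
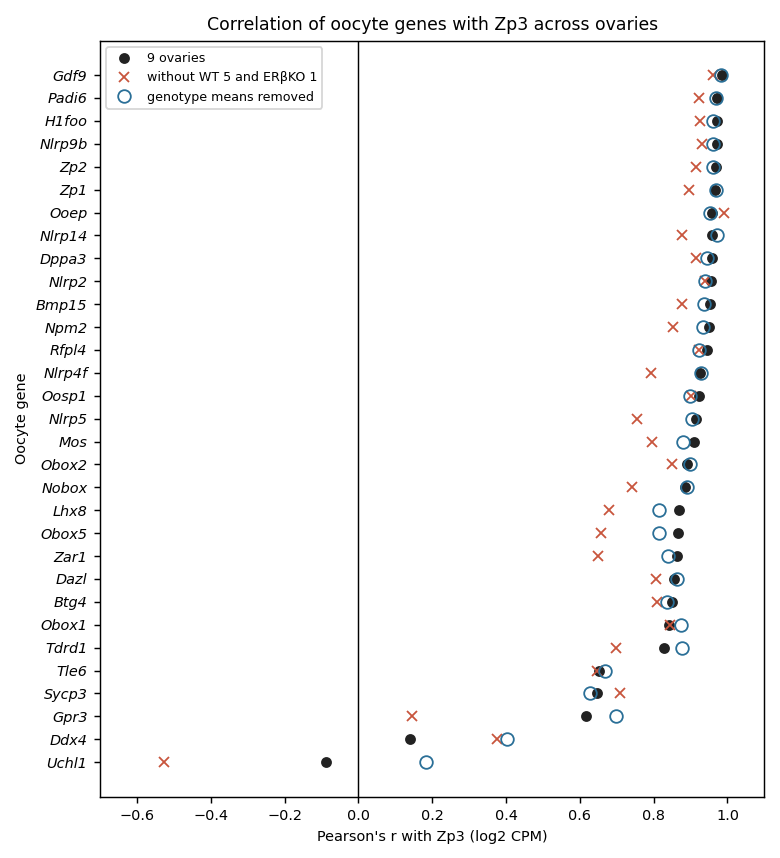
Pearson's r of log2 CPM between each tested oocyte gene and Zp3 over the 9 ovaries (filled points), with the genotype means removed (open circles), and over 7 ovaries without WT 5 and ERβKO 1 (crosses). Of 31 genes 17 lie above 0.9 over the 9 ovaries, while Ddx4 at 0.14 and Uchl1 at -0.09 lie apart.

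Over all 496 pairs of tested members the median r was 0.850, and over pairs of a fixed sample of 2091 tested genes it was 0.0005 (median absolute r 0.304). Among growing oocyte genes the median was 0.893, among early germ cell genes 0.443, and between both groups 0.771. Over the 7 libraries numbered below 200 the overall median was 0.839. The highest r of any pair was 0.994, between Zp2 and Padi6, and the lowest -0.20, between Oosp1 and Uchl1. Within the early group the members were not alike. Dazl and Tdrd1 had an r of 0.818 with each other, Nobox had 0.903 with Gdf9, and Ddx4 had 0.648 with Sycp3, 0.432 with Tdrd1, 0.354 with Dazl and -0.04 with Uchl1. The median r of Ddx4 with the other members was 0.188 and that of Uchl1 0.038.

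How far a member departed from the others was also read from its counts. An index of dispersion set the counts of each member against its share of the summed counts of the other growing oocyte genes, where 1 is the spread that counting alone gives. Its median over the 32 tested members was 2.25, against 19.4 when the library total was used in place of the oocyte sum, and it was below 3 for 18 members. Zp1 had an index of 0.408 given the oocyte sum and 29.8 given the library total, so its counts followed those of the other oocyte genes to within counting error. The index was 9.98 for Nlrp5, 11.4 for Ddx4, 41.3 for Tle6 and 90.5 for Uchl1. Given the library total it was 59.4 for Nlrp5, 4.51 for Ddx4, 35.5 for Tle6 and 29.0 for Uchl1. The index rises with the number of counts, so members of unlike depth cannot be ranked by it. Nlrp5, with 6060 counts in all, ranged from 0.808 to 1.30 times its expected share, and Ddx4, with 651 counts, from 0.696 to 2.46 times. In WT 5, where the growing oocyte sum was lowest, the counts were 2.46 times the expected share for Ddx4, 1.97 times for Tle6, 1.79 times for Uchl1 and 1.76 times for Sycp3, which had no more than 25 counts in any ovary. Uchl1 was farther from its share in WT 2, at 1.85 times.

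Ratios within an ovary do not depend on the scaling of its library. Of 4 ratios of deposited FPKM compared between genotypes, that of Ddx4 to Zp3 was 0.144, 0.0839, 0.0912, 0.0907 and 0.224 in WT 1 to 5 and 0.0786, 0.0635, 0.0659 and 0.0610 in ERβKO 1 to 4. All 4 ERβKO values lay under the lowest WT value, with means of 0.127 ± 0.0594 in WT and 0.0672 ± 0.00783 in ERβKO (SD, n = 5 and 4). The log2 difference was -0.81 (two-sided exact permutation test, p = 0.0317, adjusted over the 4 ratios p = 0.127), so it did not pass after adjustment. It was -0.79 with CPM in place of FPKM, at the same p. Leaving out any 1 ERβKO ovary gave p of 0.0714 to 0.0893, and Ddx4 was a scarce transcript at 3.16 to 6.24 CPM. The other 3 ratios overlapped between genotypes. Zp1 to Zp3 was 0.597 ± 0.0588 in WT and 0.530 ± 0.0421 in ERβKO (log2 difference -0.17, exact permutation p = 0.103, adjusted p = 0.206), Zp2 to Zp3 was 1.43 ± 0.176 and 1.39 ± 0.132 (-0.04, p = 0.722, adjusted p = 0.722, exact), and Bmp15 to Gdf9 was 0.325 ± 0.0638 and 0.294 ± 0.0904 (-0.18, p = 0.516, adjusted p = 0.688, exact). With CPM in place of FPKM the log2 differences were -0.17 for Zp1 to Zp3, -0.04 for Zp2 to Zp3 and -0.06 for Bmp15 to Gdf9.

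Beyond the members, 48 further genes known from oocytes were looked up, of which 43 were tested and none was called in edgeR. Their fold changes were positive for 38 of 43 with a median of 0.32, and 7 had an unadjusted p under 0.05, all higher in ERβKO ovaries, which is 16.3% against the 19.8% of all tested genes. DESeq2 called 1 of the 43, Tex15, a germ-cell gene, as higher, and it called 800 of all 16722 genes in either direction. Of the 5 with the highest FPKM, Kit, the receptor of the growth signal from granulosa cells, had 8.08 ± 3.01 FPKM in WT and 13.1 ± 2.86 in ERβKO ovaries (SD, n = 5 and 4; log2 fold change 0.71, standard error 0.24, edgeR adjusted p = 0.144, and 0.0226 to 0.419 over the alternatives, called only without WT 2). KIT is also made by theca and interstitial cells. Plat, which encodes tissue plasminogen activator, had a log2 fold change of -0.18, Zbed3 of 0.28, Cpeb1, a regulator of mRNA polyadenylation, of 0.08, and Rec8, a meiotic cohesin gene, of 0.15, none past the threshold. Ranked by the correlation of genotype-centred log2 CPM with the mean of the members over the 9 ovaries, the 10 most alike outside the members, of 15820 genes ranked, were Apela (r = 0.993), Pla2g4c (0.992), Pkd2l2 (0.987), Oas1c (0.986), Trim60 (0.984), Khdc1b (0.984), Eif4e1b (0.979), Cpsf4l (0.976), E330034G19Rik (0.976) and Cpa1 (0.976). Their log2 fold changes were 0.24 to 0.49, and none passed the threshold. None of the 10 was among the 48 further genes, of which 10 stood in the first 100 ranks together with 19 members. The members make up the mean used for the ranking, so their own high ranks are partly built in.

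The somatic markers of the same libraries are given beside these values. The 10 luteal markers, genes of the steroid-making corpus luteum, summed to 17289, 8090, 10820, 12315 and 20621 CPM in WT 1 to 5 and to 7035, 7261, 11146 and 7812 CPM in ERβKO 1 to 4. WT 5 was thus the highest for luteal and the lowest for growing oocyte genes, and ERβKO 1 the lowest for luteal and the highest for growing oocyte genes. WT 2 was low for both. Of the luteal markers 1 of 10 had a positive fold change and the median was -0.84. None of the 10 was called in edgeR, where 5 had an unadjusted p under 0.05, whereas DESeq2 called 3 as lower (Cyp11a1, Parm1 and Star). The 10 granulosa markers, of the cells that surround the oocyte, summed to 2540 to 3584 CPM in WT and 3324 to 4734 CPM in ERβKO ovaries, and 10 of 10 had a positive fold change (median 0.56). Of these edgeR called 1 as higher, Hsd17b1, and DESeq2 called 5 (Amhr2, Fshr, Gja1, Hsd17b1 and Inha). The 7 adipocyte markers summed to 214 to 399 CPM in WT ovaries, and to 1549, 535, 694 and 239 CPM in ERβKO 1 to 4, and all 7 had a positive fold change (median 1.36). Called were 0 of 7 in edgeR, where all 7 had an unadjusted p under 0.05, and 3 as higher in DESeq2 (Cidec, Lep and Plin1). Over all 16722 genes tested edgeR called 287 and DESeq2 called 800, and 19.8% had an unadjusted p under 0.05 in edgeR. With 1 ovary left out edgeR called 0 to 4 luteal markers, the 4 without WT 2, 0 to 3 granulosa markers, the 3 without ERβKO 1, and 0 to 2 adipocyte markers, the 2 without ERβKO 4. These fits called 919 of 16542 genes without WT 2, 253 of 16837 without ERβKO 1 and 80 of 16958 without ERβKO 4. The theca markers summed to 978 to 1797 CPM in WT and 1115 to 2307 CPM in ERβKO, with 3 of 5 tested positive, and the oviduct epithelium markers to 3500 to 6340 and 4143 to 5083 CPM, with 6 of 7 positive. These sums lean on single genes. In WT 1, Ovgp1 made 1294 of the 1409 FPKM of the oviduct list, and Acta2 made 323 of the 404 FPKM of the theca list. Ovgp1 was the oviduct marker with a negative log2 fold change (-0.12), and Acta2 was also negative (-0.18). None of the lists had a sum of 0 in any ovary. The theca marker Insl3 was near the floor and did not pass the filter, with a mean FPKM of 0.639 (WT) and 0.0189 (ERβKO). The theca marker Cyp17a1 went the other way, with a mean FPKM of 48.4 (WT, SD 48.8) and 246 (ERβKO, SD 217). Its log2 fold change was 2.35 at an edgeR adjusted p of 0.205, so it was not called, and its genotypes overlapped. The part of the cells marked by these lists, or of a follicle's stage, in the level of the oocyte genes was not tested.

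**Figure D5:**
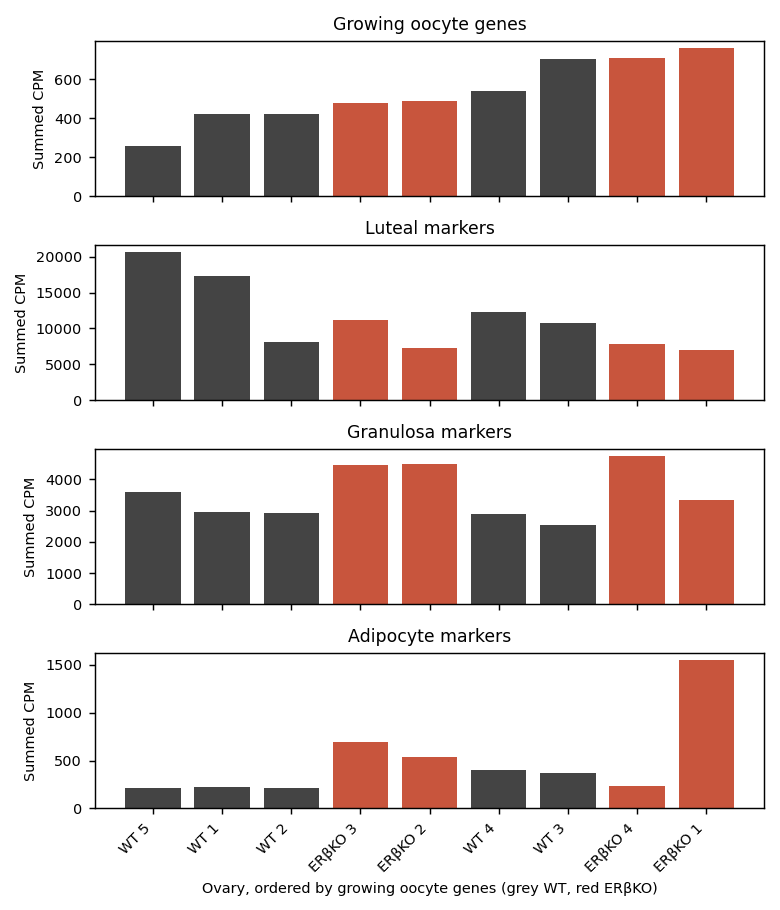
Summed CPM of the growing oocyte genes (top) and of luteal, granulosa and adipocyte markers in each ovary, in the order of the growing oocyte sum (WT grey, ERβKO red; bars start at 0). WT 5, lowest at 256 CPM for growing oocyte genes, is highest at 20621 CPM for luteal markers, and ERβKO 1, highest at 761 CPM, is lowest at 7035 CPM.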

How the data were processed

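Polyadenylated RNA of 5 WT and 4 ERβKO ovaries was sequenced with a strand-specific kit, with a library for each mouse. Reads were aligned by the authors to GRCm38 (mm10) with STAR, and the deposited counts are their raw featureCounts fragments per gene. The authors calculated the deposited FPKM with StringTie. The deposited TPM and coverage values, also from StringTie, were not used for a result. The count model was edgeR 4.0.16 under R 4.3.3: genes were filtered with filterByExpr (16722 of 46078 kept), scaled by TMM and compared with the quasi-likelihood test and Benjamini-Hochberg adjustment over all tested genes. CPM were scaled by TMM, with a prior count of 2 on the log2 scale. For single values, exact two-sided permutation tests were run on log2(FPKM + 0.1), or on log2 ratios, over all splits of 9 ovaries into 5 and 4. DESeq2 1.42.0 and limma 3.58.1 on log2 FPKM served as alternatives. Python 3.11.15, NumPy 2.4.6, SciPy 1.17.1, pandas 2.3.3 and matplotlib 3.10.9 were used. The edgeR and DESeq2 fits were run on simulated counts, with a common dispersion for all genes and planted changes larger than those of the members. That run was thus no check at fold changes as small as theirs.

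The members, lists and tests were chosen with earlier results of these data known. Values per ovary are given for the 3 members of highest mean FPKM in each role, for every member called, with an unadjusted p under 0.05 or with genotypes that do not overlap, and for any with an ovary that stands apart by Dixon's test, of which there was none. From the further genes the 5 of highest FPKM and any called were named, and the 10 genes most like the members' mean. Tex15 and single marker genes were named after their values were seen. Each p measures the spread between single mice. RefSeq promoter windows were matched by symbol; Npm2, Zp2, Dppa3, Gdf9, H1foo, Nlrp14, Zp1 and Mos are among the members without one here.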

Additional observations from a re-analysis of the deposited data

How the results depend on the processing

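None of the 36 member genes was called under any alternative: DESeq2, DESeq2 size factors or upper-quartile factors in edgeR, no filter or a minimum of 10 counts in each library, limma with 1 or 0.1 added to FPKM, the replicate block, only the libraries numbered below 200, or without any 1 ovary. Of the 43 further oocyte genes, Tex15 was called in DESeq2 and without WT 4, and Kit without WT 2. Over all tested genes the calls ranged from 49 (limma, pseudocount 0.1) to 919 (without WT 2), with 800 in DESeq2 and 287 in edgeR. The median log2 fold change of the members ranged from 0.234 to 0.536. Of 573 values of single members under an alternative, 565 kept their direction and side of the threshold and 8, of 3 members, reversed. With 1 ovary left out, Tle6 ranged up to 0.24, Sycp3 up to 0.41 and Gpr3 up to 0.26. Without ERβKO 1, Tle6 was at -0.046, Sycp3 at -0.038 and Gpr3 at -0.28. Gpr3 was also negative without WT 2 (-0.094), WT 5 (-0.14) and ERβKO 3 (-0.047), over the libraries numbered below 200 (-0.14) and with the replicate block (-0.16). With the replicate number as a block 0 members were called and their median log2 fold change was 0.247. Only WT has a replicate 5, so WT 5 adds nothing to that comparison. The labels do not say whether the numbers pair the samples. The deviations of same-numbered WT and ERβKO ovaries had correlations of 0.0948, 0.130, -0.043 and -0.011 over the tested genes. Those of differently numbered ovaries were -0.297 to 0.205, and so few ovaries cannot settle whether a pairing exists. The block moved the calls over all genes from 287 to 155.

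The log2 ratio of Ddx4 to Zp3 ranged from -0.93 to -0.58 when 1 ovary was left out, and its p rose above 0.05 without any of the 4 ERβKO ovaries (-0.89, -0.79, -0.80 and -0.77). That of Bmp15 to Gdf9 ranged from -0.34 to 0.040, the latter without ERβKO 1, and that of Zp2 to Zp3 from -0.096 to 0.0086, turning positive without WT 2 (0.0084) and without ERβKO 3. Relations with Zp3 that passed fell from 26 to 16 without the 2 ovaries farthest from its median. The cause of these changes was not tested. Few counts limit Figla, Sohlh1, Sohlh2, Khdc3 and Gpr3, each with at most 17 in any ovary. For Khdc3, which overlaps Gm20509 on the same strand, the cause of the low count was not tested.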
